A study of Mus musculus with 14 samples.

Results

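Regulatory T cells (Treg cells, marked by the transcription factor Foxp3) that had been activated during graft-versus-host disease (GVHD) were compared with Treg cells from resting spleens. The comparison holds 6 of the 14 arrays of the series: GVHD-activated replicates 1 to 3 and naive replicates 1 to 3, the controls that the submitters assign to them. The arrays were chosen by their titles alone. RNA was measured on Affymetrix mouse arrays, which give a brightness for each probe set, a group of short probes against a transcript. All cells carried a Foxp3-ires-GFP knock-in allele on the 129/SvJ background, so that Foxp3+ cells could be sorted by their green fluorescence, and were H-2b. The naive cells came from the resting spleens of knock-in mice. The GVHD-activated cells were sorted from spleens of Balb/c hosts (H-2d) on day 4 after transplantation. These hosts had been irradiated with 900 cGy and given 2000000 wild-type 129/SvJ marrow cells together with 2000000 CD4+ and CD8+ T cells from knock-in mice. Only the donor T cells carried GFP, while the hosts and the donor marrow did not. A sort purity above 95% is given for the GVHD-activated samples and none for naive replicates 1 to 3. The transferred T cells had been purified on MACS columns as CD4+ and CD8+ cells, and the labels do not say whether the sorted cells were Foxp3+ at transfer or became so in the host. The age and sex of the mice, and whether animals were pooled, are not given in the sources used here.

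Treg cells restrain other lymphocytes and are held in check by limited growth signals. They depend on interleukin-2, which they bind with a high-affinity receptor but make little of themselves. In a GVHD model, donor T cells meet foreign major histocompatibility complex (MHC) molecules throughout an irradiated host, and large numbers of them enter the cell cycle within days. A resting T cell that is activated copies its DNA, rebuilds its protein synthesis and changes the receptors by which it senses cytokines, antigen and tissue, and it loses transcription factors that keep it quiescent.

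The GVHD arrays had been deposited at a scale 3 times higher than the others, so every array was first rescaled to a 2% trimmed mean of 500, the mean signal without the lowest and highest 2% of probe sets. A change is the difference of log2(rescaled signal + 32) between the groups, which understates the change of dim genes, and it is given with its standard error (SE) over 3 arrays a group. Genes are called, and written as risen or fallen, where limma's Benjamini-Hochberg adjusted p was under 0.05. Signals of different genes are not compared, because probe sets differ in brightness. The titles call the replicates biological without naming animals or pools, so the p-values rest on the spread among these samples alone, which may be technical. The GVHD arrays and naive replicates 1 to 3 differ in the deposited scale and in number format, and neither set holds arrays of both groups. Batch and group cannot be told apart. Values against naive replicates 4 to 6, further resting spleen samples that serve as the tumor controls of the series, are therefore given beside the main ones, although their cell content and RNA differ from those of naive replicates 1 to 3 as given further below.

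Of 11145 genes tested, 2061 were higher in GVHD-activated cells (18.5%) and 2657 were lower (23.8%), and the median change over all genes was -0.10. Scaling each array to the same median instead moved that median to 0.13 and the share of calls that were higher from 43.7% to 61.7%. The 3 arrays of each group did not overlap in 5792 genes (52.0%), among them 4599 of the 4718 called. Against naive replicates 4 to 6, 22.9% of genes were called higher and 22.7% lower (median 0.10). Changes of at least 4-fold were called in 332 rising and 344 falling genes. At 16-fold or more there were 71 rises and 21 falls. Each group count is to be read against these shares. In a means model over all 14 arrays, in which the groups share 1 estimate of the spread, 1228 genes were called higher and 1519 lower. The counts of a pathway list in that model are given where either count differs by more than 1.5 times.

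**Figure D1:**
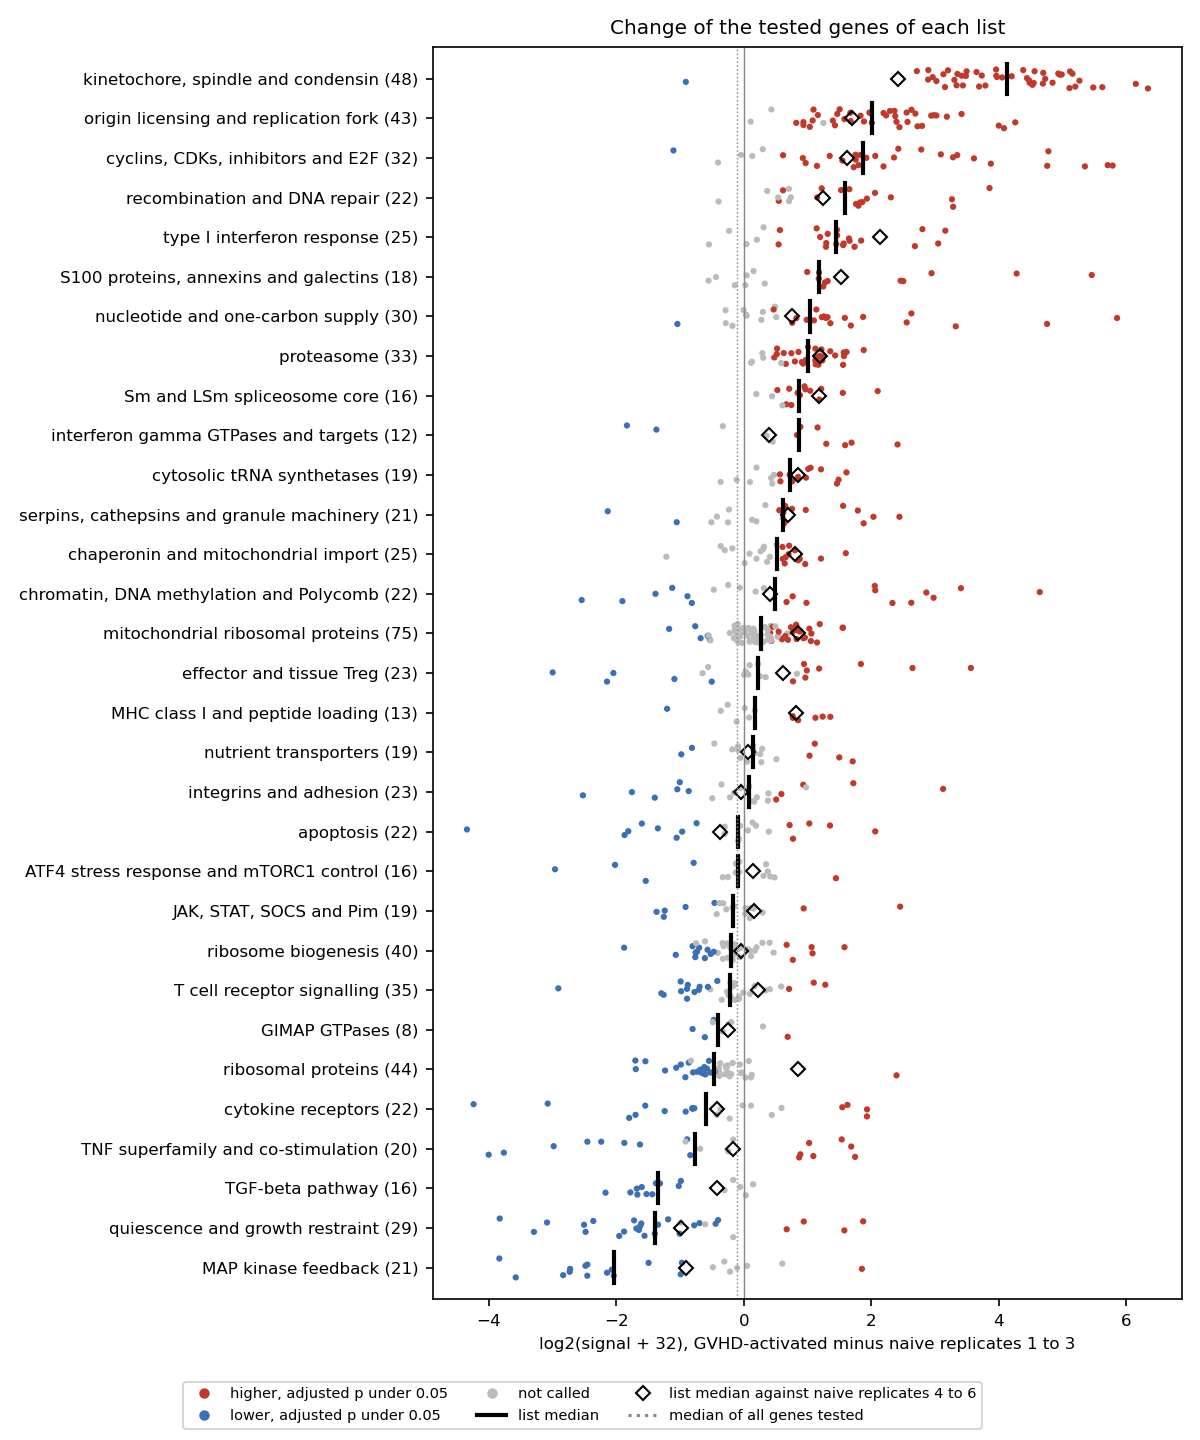
Change in log2(signal + 32) from naive replicates 1 to 3 to GVHD-activated Treg cells (x axis) for each tested gene (points) of 31 lists (rows, number of genes tested in brackets), coloured by call, with the list median as a bar and the median against naive replicates 4 to 6 as a diamond. The kinetochore list has the highest median (4.13) and the MAP kinase feedback list the lowest (-2.04) by the bars, and for ribosomal proteins bar (-0.46) and diamond (0.86) lie on opposite sides of 0.

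A signal of at least 100 was reached by 46.8% to 50.3% of probe sets on the 3 GVHD arrays and by 52.4% to 55.4% on the 3 naive arrays. Correlations over probe sets were 0.929 to 0.941 among the naive arrays, 0.933 to 0.946 among the GVHD arrays and 0.865 to 0.884 between the groups. RNA breakdown raises the 3' over the 5' signal of Gapdh. That ratio lay at 4.27 to 5.11 in naive replicates 1 to 3, at 3.28 to 4.50 in GVHD and at 7.45 to 19.1 in naive replicates 4 to 6. The same ratio for actin was 1.89 to 2.38 in naive replicates 1 to 3 and 1.30 to 1.46 in GVHD, without overlap, and 1.99 to 3.04 in naive replicates 4 to 6. The part of RNA quality in the changes was not tested. The Foxp3 probe set read 8.98, 29.2 and 108 in naive and 52.6, 94.7 and 40.2 in GVHD replicates 1 to 3 and did not pass the filter (a signal of at least 100 on at least 3 of the 6 arrays), so it does not check the sort. Of 10 T lineage markers 0 rose and 3 fell, or 8 fell under quantile scaling and 0 in the 14-array model, and Cd3e was at -0.53 (adjusted p = 0.063). The 3 were Trat1 (-1.58), Cd3d (-0.99) and Cd4 (-0.89), of which Cd3d and Cd4 read 0.22 and 0.43 against naive replicates 4 to 6 and did not pass there. Summed over the list, the signal reached 96017 to 116445 in naive replicates 1 to 3 but 84115 to 92111 on the GVHD arrays. In bulk samples fewer cells of a type and less RNA per cell cannot be told apart.

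Few markers of other cell types were called. Macrophage and monocyte markers had 0 calls among the 7 that passed the filter, and the summed signal of all 14 on the array was 988 to 2093 in GVHD against 1352 to 1639 in naive replicates 1 to 3. Neutrophil markers had 0 calls among 2 (summed signal of 10 markers 617 to 2351 against 471 to 945). Of 5 B cell and plasma cell markers Cd79b fell (-0.99; the call was lost without naive replicate 3, at -0.88), and Cd79a, Pax5, Blk, Cr2 and Fcer2a did not pass the filter. The summed signal of 10 markers, most of it from Ighm, overlapped at 16646 to 24785 in GVHD and 14120 to 24892 in naive. Of 5 CD8 T and NK cell markers Crtam fell (-2.92), and the summed signal of 9 markers was 935 to 1880 against 1611 to 3883. For Cd8a the probe set used read 116, 2353 and 217 in naive and 119, 599.6 and 1206 in GVHD replicates 1 to 3 (0.14, adjusted p = 0.92), and 2 of its other probe sets fell, so no direction is given. Of the MHC class II genes, which mouse T cells hardly make, 3 of 7 fell, with a summed signal over 9 genes of 2005 to 3169 against 5035 to 5776. H2-Ob (-4.04), H2-Oa (-1.81) and Cd74 (-0.92) were these 3, while with arrays scaled to the same median 1 rose and 2 fell. Of 2 dendritic cell markers Bst2 rose (1.46), which is also an interferon-induced gene. Car2 (-1.89) fell among 6 erythroid and platelet markers. Pecam1 (-1.68) fell among 5 stromal and endothelial ones (the call was lost without naive replicate 2 or GVHD replicate 3, at -1.42 to -1.15). Naive replicates 4 to 6 stood apart in some of these markers. Ms4a1 (CD20, of B cells) read 1709.6, 421 and 1777 there, 71.9, 179 and 97.2 in naive replicates 1 to 3 and 146, 11.7 and 132 in GVHD. The summed MHC class II signal was 6434 to 13964, that of macrophage and monocyte markers 765 to 4567, with the highest in naive replicate 6, and that of neutrophil markers 376 to 1824. Naive replicate 6 was left out in some further fits as the array of that set with the highest macrophage and monocyte sum, although it did not stand apart in every sum. The T lineage sum was 55590 to 82100, below both other groups. The part of these cells in the changes below, against either set of controls, was not tested.

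Genes of cell division had the highest median change of the 31 lists. Of 48 tested genes for kinetochores, spindle and condensin, the machinery that attaches and moves chromosomes, 47 rose and 1 fell, with a median change of 4.13. Against naive replicates 4 to 6 the counts were 46 and 1 with a median of 2.42, so the direction held while the size was smaller. In the 14-array model the counts were 47 and 0. Bub1b, a kinase of the spindle checkpoint, read 146, 86.2 and 26.8 in naive replicates 1 to 3 and 8958, 8072 and 9106 in GVHD (a log2 change of 6.35, SE 0.32, adjusted p = 7.6e-08). Top2a, the topoisomerase that untangles sister chromatids, went from 385, 521 and 396 to 20331, 20761 and 20990.4 (5.49, SE 0.16). Birc5 (survivin, of the chromosomal passenger complex) rose by 6.16 and Nusap1, a microtubule-binding spindle protein, by 5.63. These 4 were named for the size of their rise. The groups did not overlap for any of them, as in 4599 of the 4718 genes called, and the spread among the GVHD arrays was small beside the change. Naive replicates 4 to 6 read higher than naive replicates 1 to 3, at 881, 688 and 172 for Bub1b and 4502, 3839.6 and 1929 for Top2a. Smc4, a condensin subunit, was the 1 gene to fall, from 19946, 16894 and 23866 to 11688, 10060.1 and 10272 (-0.91, and -0.78 against naive replicates 4 to 6).

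Many genes of mitosis share a short promoter element, the cell cycle genes homology region (CHR, TTTGAA), which binds the MuvB complexes that silence these genes in resting cells and drive them late in the cycle. The letters TTTGAA were searched on both strands of the 250 bases before the RefSeq start (GRCm38.p6). They were found for 14 of the 42 kinetochore list genes with a promoter in the table (33.3%), against 961 of 9051 genes tested (10.6%) and 4398 of all 27025 genes with a promoter (16.3%). Of 34 origin licensing and fork genes 4 held them (11.8%), and of 25 genes of the cyclin list 6 (24%). In the interferon lists given further below they were found for 3 of 10 interferon gamma genes (30%) and 2 of 17 type I genes (11.8%). The share in the kinetochore list was thus not particular to it. The 3 examples are printed because they are the called members with the largest rise whose upstream stretch holds the letters and overlaps no annotated gene. The choice left out a chromosome, whose genes were not printed whatever their rise. Each is given from 5′ to 3′ along the gene up to the base before the start, with the match in capitals, and a match is not evidence of binding. None of the 3 stretches also held the interferon motif searched further below.
Ube2c, chr2:164769829-164769928, plus strand: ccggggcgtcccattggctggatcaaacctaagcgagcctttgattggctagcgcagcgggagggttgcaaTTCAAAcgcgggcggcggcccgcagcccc
Cdc20, chr4:118437344-118437443, minus strand: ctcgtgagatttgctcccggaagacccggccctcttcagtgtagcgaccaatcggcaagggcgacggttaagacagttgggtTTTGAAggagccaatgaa
Kif11, chr19:37376282-37376381, plus strand: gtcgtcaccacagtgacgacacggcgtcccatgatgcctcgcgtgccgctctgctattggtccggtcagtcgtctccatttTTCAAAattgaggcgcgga
Ube2c (the ubiquitin-conjugating enzyme of the anaphase-promoting complex) rose by 5.16, Cdc20 (an activator of that complex) by 5.12 and Kif11 (the kinesin that pushes spindle poles apart) by 4.53. The match began 29, 18 and 19 bases before the start.

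The DNA replication genes rose in the same samples. Of 43 tested genes for origin licensing and the replication fork 40 rose and 0 fell (median 2.01; 39 and 0 against naive replicates 4 to 6, median 1.70), and Orc2 (0.43) and Pold2 (0.11) were not called. Fen1, the flap endonuclease, was not called at the probe set used, which read 3018, 68253 and 3614 in naive and 18135, 38106 and 14716 in GVHD (1.25), but its other probe set rose (2.22), and the one used rose against naive replicates 4 to 6 (2.49). Cdc6, which loads the replicative helicase onto origins, read 83.0, 115 and 94.6 in naive and 1536, 2061 and 2656 in GVHD (4.00, SE 0.24, adjusted p = 2.8e-07). Clspn (claspin, of the replication checkpoint) rose by 4.26, Mcm10 by 4.09 and Cdc45, a part of the helicase, by 3.42. Of 30 genes that supply nucleotides 19 rose and 1 fell (median 1.04). Rrm2, the regulated subunit of the enzyme that makes deoxynucleotides, went from 448, 433 and 418 to 24007, 28757 and 28427 (5.86, SE 0.14), its arrays of each group lying close together. Its partner Rrm1 rose by 3.33, thymidine kinase Tk1 by 4.76 and the dUTPase Dut by 2.63. Dhodh, the mitochondrial enzyme of new pyrimidine synthesis, fell from 476, 609 and 481 to 270.5, 192 and 251 (-1.04, adjusted p = 0.0039).

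Of 32 cyclins, cyclin-dependent kinases, their inhibitors and E2F factors 27 rose and 1 fell (median 1.88; 22 and 2 against naive replicates 4 to 6). Ccna2, cyclin A of S phase and G2, read 175, 111 and 208 in naive and 9745, 10047 and 12149 in GVHD (5.79, SE 0.21). Cdk1, its mitotic kinase, rose by 5.71, Ccnf by 5.36 and Ccnb2, a B cyclin, by 4.78. The one fall was Cdkn1b, the inhibitor p27 of resting lymphocytes, from 681, 1119 and 926 to 318, 442 and 445 (-1.10). The D cyclins Ccnd1 and Ccnd2, which open the cycle, changed by 0.30 and -0.043 and were not called, nor were Rb1 (0.13) and Rbl2 (-0.40). Another probe set of Ccnd2 fell (-0.69), while the rest of them past the filter were not called. Mki67, the Ki-67 proliferation antigen, went from 1025, 927 and 811 to 33195, 36148 and 31380.4 (5.14), and in naive replicates 4 to 6 it read 8424, 7061 and 3413. Outside the lists, the 12 largest rises included Depdc1b (5.75), Nek2 (5.62), Cdca5 (5.59), Shcbp1 (5.33) and Cdca3 (5.04). Nek2 is a centrosome kinase and Cdca5 (sororin) holds sister chromatids together.

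Of 22 recombination and repair genes 16 rose and 0 fell (median 1.59). Rad54l, of homologous recombination, went from 78.3, 161 and 126 to 1751, 2207 and 2544 (3.86), and Brca1 rose by 3.29, Rad51ap1 by 3.27 and Fanca by 2.31. The chromatin list split, with 11 of 22 rising and 6 falling (10 and 6 against naive replicates 4 to 6, 9 and 2 in the 14-array model). Uhrf1, which guides the maintenance methyltransferase to copied DNA, rose by 4.65 and that methyltransferase, Dnmt1, by 2.63. The Polycomb enzyme Ezh2 (2.06), Hells (2.98), the histone variant H2ax (2.87) and Hmgb2 (3.41) rose too. The 6 that fell were the new-methylation enzymes Dnmt3a (-0.88) and Dnmt3b (-0.82; the call was lost without naive replicate 3, at -0.79), the methylcytosine oxidases Tet1 (-1.91) and Tet2 (-1.39), the other Polycomb methyltransferase Ezh1 (-1.12) and Kdm6b, a demethylase for the Polycomb mark. Kdm6b went from 14546, 7865 and 10919.7 to 1984, 1632 and 1861 (-2.54), but changed by -0.61 against naive replicates 4 to 6. Dnmt1 and Ezh2 were thus higher while Dnmt3a and Ezh1 were lower, and all 4 kept their direction and call against naive replicates 4 to 6, at 1.50, 1.30, -1.79 and -0.98.

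**Figure D2:**
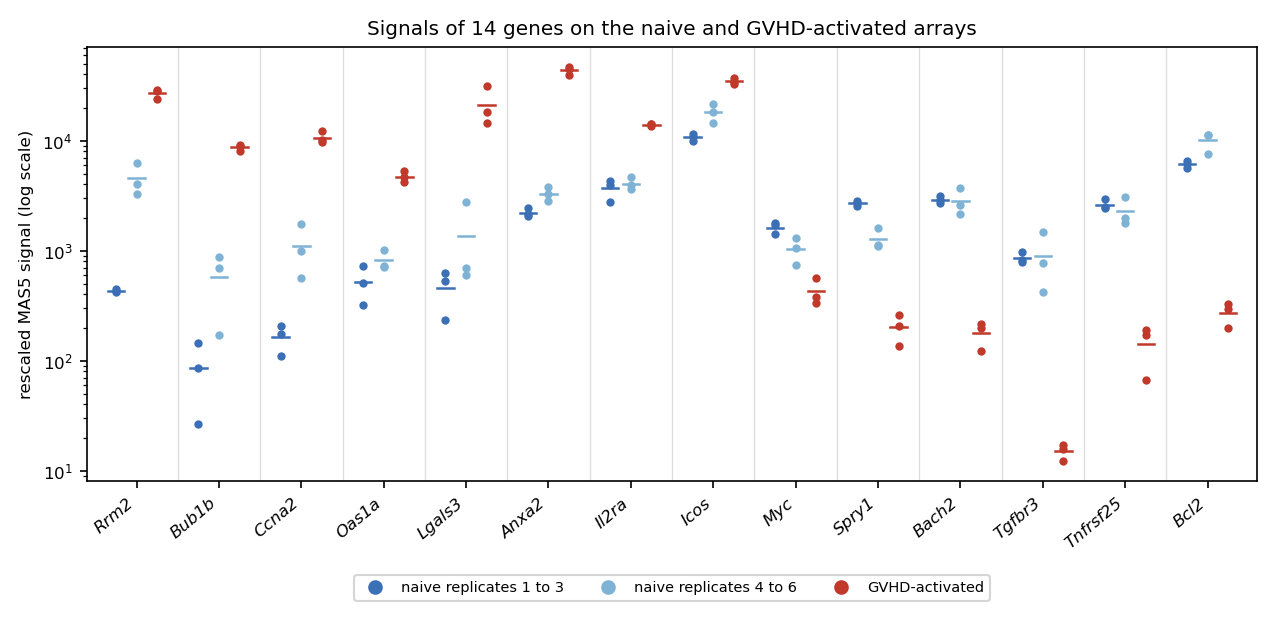
Rescaled signal (y axis, log scale) of 14 genes on each array of naive replicates 1 to 3, naive replicates 4 to 6 and GVHD-activated replicates 1 to 3 (points), with the mean of each group as a line. The GVHD points lie above both naive sets from Rrm2 to Icos and below both from Myc to Bcl2, and naive replicates 4 to 6 lie between the other groups for Rrm2, Bub1b and Ccna2.

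Protein turnover and synthesis genes did not move as 1 block. Of 33 proteasome subunits and assembly factors 28 rose and 0 fell (median 1.01; 28 and 0 against naive replicates 4 to 6, median 1.196). Psmb5, which carries the chymotrypsin-like site, read 4849.6, 4119.6 and 3969.5 in naive and 12061, 13943 and 13745 in GVHD (1.61, SE 0.15), and Psmb2 (1.88), Psmd13 (1.57) and Psmc1 (1.57) rose alike. Of 16 genes in the list for Sm and LSm proteins, the rings around spliceosomal RNAs, 13 rose and 0 fell (median 0.86). The largest rises were Lsm2 (2.10), Lsm4 (1.56), Lsm8 (1.22) and Snrnp25 (1.19), the last of which is not an Sm or LSm protein. Of 19 cytosolic tRNA synthetases, which charge tRNAs with amino acids, 12 rose and 0 fell (median 0.72; 12 and 0 against naive replicates 4 to 6). Vars, for valine, went from 1323, 1629 and 1104 to 4655, 3691 and 4159 (1.61), and Wars (1.49), Aars (1.46) and Gars (1.21) followed. Of 25 genes of the cytosolic chaperonin and of mitochondrial protein import 12 rose and 0 fell (median 0.52), with Hspd1, the mitochondrial chaperonin HSP60, at 1.60 (0.53 against naive replicates 4 to 6, not called there), Tcp1 and Cct7, subunits of the cytosolic chaperonin, at 1.21 and 0.97 and Timm23 at 0.88. The medians of these 4 lists stayed positive under median and quantile scaling. In the 14-array model 16 proteasome, 5 Sm and LSm, 8 tRNA synthetase and 5 chaperonin and import genes rose, and 0 fell in each list.

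Ribosome biogenesis genes had more falls than rises. Of 40 ribosome biogenesis genes 5 rose and 11 fell (median -0.20). Myc, the transcription factor that drives this program in dividing lymphocytes, read 1766, 1405 and 1697 in naive and 337, 375 and 567 in GVHD (-1.88, SE 0.22, adjusted p = 3.7e-05). The groups did not overlap, as in 52.0% of all genes tested, and naive replicates 4 to 6, at 1306, 739 and 1063, also lay above GVHD (-1.22). Bysl (1.58), Nhp2 (1.08), Ddx21 (1.07), Gar1 (0.77) and Ebna1bp2 (0.67) were the 5 rises. At their other probe set past the filter Ddx21 (-0.036) and Bysl (0.45) were not called. For Gar1 the call was lost without naive replicate 1 or 3 or GVHD replicate 2 or 3, at 0.53 to 0.75, and for Ebna1bp2 the call was lost without naive replicate 3 or GVHD replicate 2, at 0.55 to 0.58. The falls after Myc were led by Utp20 (-1.07), Nob1 (-0.80) and Wdr75 (-0.76), which serve early and late steps of small subunit assembly. Against naive replicates 4 to 6 the counts were 5 and 7, with arrays scaled to the same median 7 and 4 (median 0.04), under quantile scaling 4 and 12, and in the 14-array model 3 and 5, so the list has no direction that all settings share.

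Cytosolic ribosomal proteins changed direction with the controls. Of 44 tested, 1 rose and 21 fell against naive replicates 1 to 3 (median -0.46), while 25 rose and 1 fell against naive replicates 4 to 6 (median 0.86). With arrays scaled to the same median 7 fell, 17 under quantile scaling and 3 in the 14-array model. Rps15 read 51487, 50767 and 63110.3 in naive replicates 1 to 3, 18334, 3654 and 3035 in naive replicates 4 to 6 and 35877, 20085 and 17502 in GVHD, so that GVHD lay below the first set and above the second in the mean, with 1 array overlapping the second. Rpl12 went the same way against both, at -1.54 and -2.81, while Rpl37a (-1.70 and -0.44) and Rps24 (-1.70 and -0.42) were 2 other falls against naive replicates 1 to 3. The 1 rise was Rps27l (2.40, 2.61 against naive replicates 4 to 6), a paralog of a ribosomal protein and a known p53 target. Of 75 mitochondrial ribosomal proteins 23 rose and 5 fell (median 0.27; 41 and 3 against naive replicates 4 to 6, 8 and 1 in the 14-array model), led by Mrpl18 (1.56), Mrpl27 (1.55), Mrpl51 (1.19) and Mrps25 (1.15). The 5 falls were Mrpl38 (-1.17), Mrpl24 (-0.76), Mrps31 (-0.68), Mrps35 (-0.56) and Mrpl23 (-0.53, but 1.35 against naive replicates 4 to 6). For Mrps31 the call was lost without naive replicate 2 or GVHD replicate 3, at -0.62 to -0.54, and for Mrps35 the call was lost without naive replicate 1, 2 or 3 or GVHD replicate 2 or 3, at -0.63 to -0.43.

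**Figure D3:**
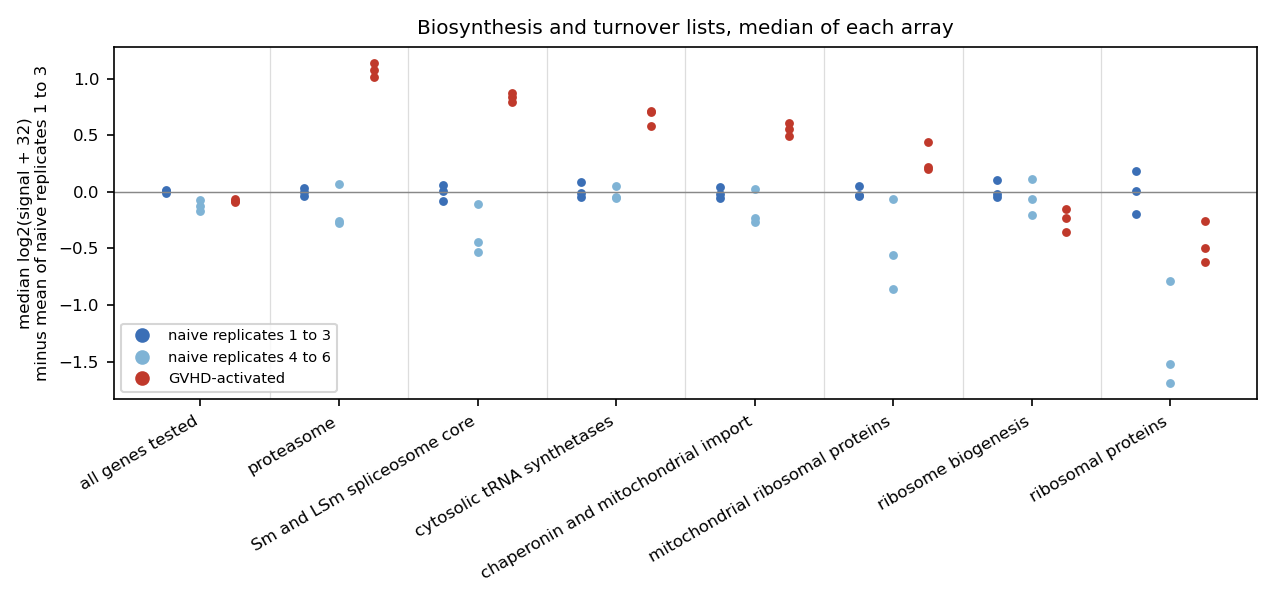
Median over the tested genes of a list of log2(signal + 32) minus the mean of naive replicates 1 to 3 (y axis), 1 point for each array of naive replicates 1 to 3, naive replicates 4 to 6 and GVHD-activated replicates 1 to 3. The proteasome, Sm, tRNA synthetase and chaperonin points of GVHD lie above those of both naive sets, whereas for ribosomal proteins they lie below naive replicates 1 to 3 and above naive replicates 4 to 6.

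Among cytokine receptors both inducible chains for interleukin-2 rose. Of 22 tested 4 rose and 11 fell (6 and 11 against naive replicates 4 to 6, 2 and 6 in the 14-array model). Il2ra (CD25, the high-affinity chain) read 3942, 2779 and 4339 in naive and 14193, 13500.1 and 14129 in GVHD (1.93, SE 0.17, adjusted p = 6.1e-06). Il2rb, the signalling chain shared with interleukin-15, went from 1306, 1551 and 1368 to 4533, 4957 and 7253 (1.94, SE 0.19). Every GVHD array lay above every naive array for either chain, while the groups did not overlap in 52.0% of all genes tested. Both chains kept their calls against naive replicates 4 to 6 (1.78 and 1.68). In the means model over all 14 arrays neither passed (adjusted p = 0.082 and 0.094). The other rises were Ifngr1 (1.63) and Il12rb1 (1.55). Il7r, the interleukin-7 receptor of resting T cells, was not called (-0.22), but fell against naive replicates 4 to 6 (-1.04).

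Receptors for interleukin-6 and TGF-beta fell. Tgfbr3 (betaglycan, a co-receptor that presents TGF-beta) read 823, 979 and 784 in naive and 17.2, 15.9 and 12.2 in GVHD (-4.24, SE 0.30, adjusted p = 1.0e-06). The signalling receptors Tgfbr2 (-1.70) and Tgfbr1 (-0.81) fell less. Il6ra went from 4515, 3967 and 5657 to 711, 413 and 488 (-3.08), and its signal-transducing partner Il6st fell by 1.24. Ifngr2 fell by 1.80 (the call was lost without naive replicate 3, at -1.39) and Il15ra by 1.55. Tgfbr3, Tgfbr2, Tgfbr1, Il6ra, Il6st, Ifngr2 and Il15ra all kept their calls against naive replicates 4 to 6, at -0.93 to -4.12. Of 16 other genes of the TGF-beta pathway 0 rose and 11 fell (median -1.35), against 1 and 6 with naive replicates 4 to 6 (median -0.42). Skil, a repressor of SMAD proteins and itself a TGF-beta target, fell by 2.17, and the inhibitory Smad7, another target, went from 2623, 2708 and 3188 to 795, 740.3 and 1106 (-1.67). Bambi, a decoy receptor (-1.68), Smad3 (-1.02) and the shared Smad4 (-1.44) fell, while Smad2 (-0.30) was not called. The ligand Tgfb1 was at -0.057 and not called, but rose by 1.88 against naive replicates 4 to 6. Pmepa1 fell by 1.78 but differed by -0.15 against naive replicates 4 to 6.

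Of 19 genes of the JAK, STAT, SOCS and Pim families 2 rose and 5 fell (1 and 3 in the 14-array model), beside 18.5% and 23.8% of all genes tested. Socs2, a feedback inhibitor induced by STAT5, read 804, 1118 and 829.7 in naive and 5554, 4319 and 5600.4 in GVHD (2.46, SE 0.18), or 3.39 against naive replicates 4 to 6. The survival kinase Pim1 rose by 0.94. Its relative Pim3 fell (-1.26), as did Socs5 (-1.37), Stat6 (-1.24), Stat5b (-0.91) and Jak1 (-0.46, but 0.59 against naive replicates 4 to 6). For Jak1 the call was lost without naive replicate 1 or GVHD replicate 2, at -0.47 to -0.44. Of 35 T cell receptor signalling genes 3 rose and 13 fell against naive replicates 1 to 3, and 6 rose and 4 fell against naive replicates 4 to 6. With arrays scaled to the same median the counts were 5 and 8, under quantile scaling 4 and 19 and in the 14-array model 2 and 1, so the list has no direction that all settings share. Cblb, a ubiquitin ligase that dampens receptor and CD28 signals, went from 11637, 11176 and 14278 to 2282, 1424 and 1274 (-2.91, SE 0.21), and changed by -2.36 against the other controls. Its other probe sets past the filter changed by -1.05 and by -0.13, the last not called, so the size depends on the probe set. Rasgrp1, which couples the receptor to Ras, fell by 1.29 (-0.45 against them), and Plcg1 (-0.98) and Malt1 (-0.88) fell with both controls too. The rises were the adaptor Sla (1.28), the phosphatase Ubash3b (1.10) and the kinase Txk (0.71; the call was lost without naive replicate 3, at 0.58). Fyn fell by 1.26 but differed by -0.15 against naive replicates 4 to 6.

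The MAP kinase feedback list had the lowest median change of the 31 lists against naive replicates 1 to 3, while against naive replicates 4 to 6 the quiescence list lay lower (-0.99). Besides genes that feed back on Ras and MAP kinase signals, the feedback list holds regulators of G proteins (Rgs10 and Rgs16) and the factor Egr2. Of 21 tested 1 rose and 14 fell (median -2.04). Against naive replicates 4 to 6 the counts were 4 and 10 (median -0.90), and in the 14-array model 0 and 12. Spry1, which blocks Ras activation, read 2692, 2568 and 2799 in naive and 258, 207 and 137 in GVHD (-3.58, SE 0.22, adjusted p = 2.9e-07). Rgs10, an accelerator of G protein shutdown, went from 7776, 7191 and 10143 to 359, 562 and 813 (-3.84), and Rgs16 fell by 2.73. The antigen-response factor Egr2 fell by 2.83. Against this, the nuclear MAP kinase phosphatase Dusp4 rose from 2389, 3343 and 2501 to 8187, 11884 and 9976 (1.86), or by 3.08 against naive replicates 4 to 6. Dusp6, the cytoplasmic ERK phosphatase, went from 384, 402 and 290.3 to 85.7, 213 and 226 (-0.99, adjusted p = 0.035); the call was lost without naive replicate 1 or 2 or GVHD replicate 1, at -0.94 to -0.63.

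Quiescence genes fell as a group. Of 29 transcription factors and restraints of growth 22 fell and 4 rose (median -1.40; 14 and 3 against naive replicates 4 to 6, 14 and 1 in the 14-array model). Bach2, a repressor that keeps T cells in a resting state, read 3145, 2703 and 2870.1 in naive and 122, 215 and 198 in GVHD (-3.83, SE 0.21, adjusted p = 1.6e-07), and changed by -3.75 against naive replicates 4 to 6. Klf4 fell by 3.29 (-1.36 against naive replicates 4 to 6, not called), Foxp1 by 3.09 and Pdcd4, a brake on translation, by 2.51. Klf2, which keeps naive T cells recirculating, depended on the controls: it read 24918, 21213 and 24185 in naive replicates 1 to 3, 7629, 7781 and 9163 in naive replicates 4 to 6 and 10011, 10459 and 14984 in GVHD (-1.01 and 0.51). The rises were Slfn1 (0.94), Slfn2 (0.67), Myb (1.87) and Ikzf3 (1.58). Myb and Ikzf3 were at -0.053 and -0.058 against naive replicates 4 to 6 and were not called there. S1pr1, the receptor that lets T cells leave lymphoid organs, was at 0.39 and was not called.

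Among 22 apoptosis genes 5 rose and 8 fell (3 and 5 in the 14-array model), and the fall of Bcl2, the main anti-apoptotic protein of resting lymphocytes, was the largest. Bcl2 read 6075, 6552 and 5644 in naive and 295, 199 and 326 in GVHD (-4.35, SE 0.19, adjusted p = 3.1e-08), a 20.3-fold fall. Naive replicates 4 to 6 read 7627, 11289.5 and 11196, so the fall was 5.04 on the log2 scale against them. All 4 other probe sets of Bcl2 past the filter were lower too, with changes from -3.85 to -1.90. Its relative Bcl2l1, which encodes Bcl-xL, was not called (0.065). Mcl1 was not called at the probe set used (-0.30), but 4 of its 5 other probe sets past the filter fell, with changes down to -1.22, so its call depends on the probe set. The caspase-8 inhibitor Cflar was at 0.14 and not called, but was lower by 1.196 against naive replicates 4 to 6, a call there. The pro-apoptotic BH3 proteins moved both ways: Pmaip1 (Noxa) rose by 2.06, while Bcl2l11 (Bim) fell by 1.05 and Bbc3 (Puma) by 0.97. Bak1 (1.03), Apaf1 (1.36), Casp8 (0.77) and Tnfsf10 (0.72) rose, and Casp1 (-1.35), Casp4 (-1.87), Fas (-1.81), Birc2 (-0.74) and Birc3 (-1.60) fell. Apaf1, Tnfsf10, Fas, Birc2 and Bbc3 were not called against naive replicates 4 to 6. For Bak1 the call was lost without naive replicate 1 or 2 or GVHD replicate 1 or 2, at 0.72 to 1.10, and for Tnfsf10 the call was lost without naive replicate 1 or 3 or GVHD replicate 2 or 3, at 0.57 to 0.74.

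The S100, annexin and galectin genes, which encode calcium-binding proteins and sugar-binding proteins, had 11 rises and 0 falls among 18 (median 1.18). Against naive replicates 4 to 6 the counts were 10 and 3. Lgals3 (galectin-3) read 528, 232 and 619.9 in naive and 31072, 18273 and 14490.2 in GVHD (5.46, SE 0.34). Anxa2 went from 2056, 2169 and 2419.8 to 44853, 46950.5 and 39538 (4.28, SE 0.14), and Lgals1 (galectin-1) from 18636, 16263 and 22892 to 122062, 104955 and 99417 (2.50). All 3 genes, named for the size of their rise, were higher on every GVHD array than on any naive array of either set. S100a6 rose by 2.95 and Vim, the filament protein vimentin, by 2.46. S100a10, the partner of annexin A2, rose by 1.32. Anxa1 depended on the controls, at 1.18 and -1.52, and the call was lost without naive replicate 1 or 3 or GVHD replicate 1 or 2, at 0.89 to 1.11.

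Adhesion and migration genes had 5 rises and 6 falls among 23 (2 and 3 in the 14-array model). These counts lie near the shares of all genes tested, 18.5% higher and 23.8% lower, so the list did not stand out by them. Fut7, the fucosyltransferase that makes selectin ligands for entry into inflamed tissue, went from 125, 40.9 and 37.5 to 785, 864 and 697 (3.13), and Selplg, which carries such ligands, rose by 0.51 (the call was lost without naive replicate 1, 2 or 3 or GVHD replicate 1 or 3, at 0.38 to 0.56). S1pr4, a sphingosine phosphate receptor of lymphocytes, read 5072, 4612 and 4447 and 16322, 15907 and 14546 (1.72). Cd48 (0.93) and Itgb7 (0.59), the beta chain of gut-homing integrin, were the other rises. Cd44, usually a marker of activated T cells, was lower: it read 2416, 2385 and 3204 in naive, 929.6, 1160.2 and 883 in GVHD and 5759.9, 4867 and 5131 in naive replicates 4 to 6 (-1.40 and -2.38). Its 2 other probe sets past the filter changed by -1.68 and -0.60. Itgb8, the integrin chain by which Treg cells activate TGF-beta, went from 242, 276 and 223 to 4.53, 5.87 and 49.8 (-2.53). Cd69 (-1.76), Icam2 (-1.04), Itgal (-1.004) and Itga4 (-0.86) fell, of which Itgal alone was also called against naive replicates 4 to 6.

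Among Treg markers, Il2ra, Capg (1.05), Ctla4, Tnfrsf4 (OX40, 0.89) and Tnfrsf18 (GITR, 0.87) rose. Ctla4, the inhibitory receptor through which Treg cells strip co-stimulatory ligands, read 23597, 22731 and 26774 in naive and 42283, 45725 and 39850.3 in GVHD (0.81, adjusted p = 8.6e-04). Nrp1 (-3.52), Gpr83 (-3.48), Izumo1r (folate receptor 4, -1.68, but -0.32 and not called against naive replicates 4 to 6) and Ikzf2 (-0.44, Helios) fell. The fall of Ikzf2 was the smallest of these (adjusted p = 0.04): the call was lost without naive replicate 1, 2 or 3 or GVHD replicate 1 or 2, at -0.49 to -0.32. Of 9 Treg markers tested 5 rose and 4 fell, or 1 and 3 in the 14-array model. Of 20 genes of the TNF superfamily and co-stimulation 7 rose and 9 fell (4 and 5 in that model). Icos read 10887, 9955 and 11511 in naive and 34086, 33012 and 37259 in GVHD (1.69), and Tnfrsf1b (TNF receptor 2, a growth receptor of Treg cells) went from 3273, 2613 and 3108 to 9903, 10662 and 9742 (1.75). Tnfrsf9 (4-1BB) rose by 1.09, and these 3 kept their calls against naive replicates 4 to 6. Tnfrsf25 (death receptor 3, which also expands Treg cells) went the other way, from 2469.5, 2940.3 and 2444 to 172, 66.4 and 189 (-4.005, SE 0.29). Tnfsf11 (RANK ligand, -3.77), Cd86 (-2.98), Cd200 (-2.46), Tnfsf8 (-2.24) and Tnfrsf14 (-1.88) fell as well, and for Tnfrsf14 the call was lost without naive replicate 1 or 2 or GVHD replicate 2 or 3, at -1.83 to -1.45.

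Genes of effector and tissue Treg cells had 8 rises and 5 falls among 23 (12 and 3 against naive replicates 4 to 6, 4 and 4 in the 14-array model). Cxcr3, the receptor for chemokines induced by interferon gamma, went from 7714, 5523 and 8336 to 29142, 23797 and 23666 (1.84), and Batf and Irf4, partner factors of effector Treg cells, rose by 1.18 and 0.95. Epas1, a hypoxia-inducible factor, rose by 2.65 and Havcr2, the inhibitory receptor TIM-3, by 3.57. Ebi3, a subunit of the suppressive cytokine interleukin-35, fell from 1079, 952 and 1542 to 286, 142 and 327 (-2.15), and Penk, which encodes proenkephalin, by 3.00. Pdcd1 (PD-1, -1.09), Tnfaip3 (-2.05) and Id2 (-0.50) completed the falls, and these 3 were not called against naive replicates 4 to 6 (-0.55, 0.47 and -0.21). For Id2 the call was lost without naive replicate 1, 2 or 3 or GVHD replicate 2 or 3, at -0.54 to -0.37. Of 21 serpins, cathepsins and granule genes 11 rose and 2 fell (7 and 1 in the 14-array model). Ctsc, the protease that activates granzymes, went from 3350.4, 3139 and 2733 to 9878, 11830.0 and 12625 (1.88), and by 0.69 against naive replicates 4 to 6. Granzymes C (2.44) and K (2.04) rose from dim signals, at 20.7, 22.8 and 9.02 and 118, 142 and 53.7 in naive to 222, 282 and 207 and 857, 463 and 317 in GVHD. Lamp2, a lysosomal membrane protein, rose by 1.79. The falls were Ctsl (cathepsin L, -2.14) and Serpinb6a (-1.05).

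Interferon-induced genes rose in the GVHD samples. Of 25 type I interferon response genes 20 rose and 0 fell (median 1.45; 20 and 1 against naive replicates 4 to 6, median 2.14). Oas1a, an activator of RNA decay, read 728, 322 and 511 in naive and 5271, 4237 and 4621 in GVHD (3.16, SE 0.25). Oas3 (3.05), Oas2 (2.80) and Rtp4 (2.69) were next. Outside the lists, the interferon-induced membrane proteins Ifitm1 (5.36) and Ifitm3 (5.02) were among the 12 largest rises, Ifitm3 going from 742, 279 and 482 to 20307, 9861 and 20798. Many genes of this response carry an interferon-stimulated response element (ISRE). The core GAAANNGAA was searched on both strands of the same 250 bases. It was found for 8 of 17 list genes with a promoter in the table (47.1%), against 551 of 9051 genes tested (6.09%) and 1934 of 27025 with a promoter (7.16%). The 3 promoters printed follow the same rule, with the matches in capitals, and none held TTTGAA.
Rsad2, chr12:26456453-26456591, minus strand: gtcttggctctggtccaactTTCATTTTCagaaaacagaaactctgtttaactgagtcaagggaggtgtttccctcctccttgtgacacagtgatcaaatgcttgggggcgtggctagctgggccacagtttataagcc
Bst2, chr8:71537473-71537622, minus strand: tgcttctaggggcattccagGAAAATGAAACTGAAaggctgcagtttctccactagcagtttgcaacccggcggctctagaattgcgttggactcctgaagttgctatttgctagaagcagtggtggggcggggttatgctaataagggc
Trim30a, chr7:104465194-104465293, minus strand: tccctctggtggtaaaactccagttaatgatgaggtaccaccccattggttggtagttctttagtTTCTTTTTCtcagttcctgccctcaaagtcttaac
Rsad2 (viperin) rose by 1.84 (0.92 and not called against naive replicates 4 to 6), Bst2 (tetherin) by 1.46 and Trim30a by 1.45. Bst2 holds 2 overlapping matches, the first beginning 130 bases before the start, and the matches of Rsad2 and Trim30a begin 119 and 35 bases before it.

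The interferon gamma GTPases, which attack vacuoles of intracellular pathogens, and related targets had 7 rises and 2 falls among 12 (4 and 1 against naive replicates 4 to 6). Iigp1 went from 1988, 1732 and 2528 to 9811, 12154 and 11507 (2.41), and Igtp (1.30), Gbp7 (1.59) and Gbp3 (1.69, not called against naive replicates 4 to 6) rose. Gbp8 fell, from 3195, 2996 and 3537 to 1223, 1110.5 and 1373 (-1.37), in the opposite direction to Gbp7 and Gbp3, and did so against both controls (-1.63). Cxcl10 fell by 1.83 and was not called against naive replicates 4 to 6. The core GAAANNGAA was found for 8 of the 10 list genes with a promoter in the table (80%). In MHC class I presentation 6 of 13 genes rose and 1 fell. The peptide pump subunits Tap1 (0.77) and Tap2 (0.85), their bridge Tapbp (0.77) and the chaperones Canx (1.24), Calr (1.13) and Pdia3 (1.36, but 0.50 and not called against naive replicates 4 to 6) rose. The heavy chains H2-D1 (0.017) and H2-K1 (-0.36) and B2m (-0.11) were not called, although 1 of 7 other probe sets of H2-D1 and 1 of 3 of H2-K1 (-0.81) fell, but B2m (1.68), H2-D1 (0.76) and H2-K1 (0.99) rose against naive replicates 4 to 6. Nlrc5, the transactivator of class I genes, went from 4579.6, 3177 and 5414 to 1997, 1876 and 1674 (-1.20, and -1.50), opposite to the pump genes.

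Stress and nutrient genes changed little as groups. Of 16 genes of the ATF4 response and mTORC1 control 1 rose and 4 fell, or 4 and 4 with arrays scaled to the same median. Sesn1, an inhibitor of mTORC1 activated by p53 and FOXO factors, went from 7525, 7941 and 8931 to 1189, 793 and 1098 (-2.96), and Sesn3 fell by 2.02, both keeping their calls against naive replicates 4 to 6. The other probe set of Sesn3 past the filter was not called (-0.17). Atf4 fell by 0.79 and Ddit3 by 1.54, but they were at 0.92 (a rise) and 0.11 (not called) against naive replicates 4 to 6. Cebpb rose by 1.45. Of 19 nutrient transporters 4 rose, 2 fell and 13 were not called (3 rose and 0 fell in the 14-array model). Of all genes tested 18.5% rose and 23.8% fell. The rises were the amino acid transporter Slc7a5 (1.50) and the monocarboxylate carriers Slc16a1 (1.71), Slc16a3 (1.12) and Slc16a6 (1.03), and the falls Slc38a2 (-0.98) and Slc19a1 (-0.81). Against naive replicates 4 to 6 Slc7a5, Slc16a1 and Slc38a2 were not called. For Slc16a3 the call was lost without GVHD replicate 3, at 0.99. Of 8 GIMAP GTPases, which regulate lymphocyte survival, Gimap7 rose (0.69) and Gimap8 (-0.80), Gimap1 (-0.61) and Gimap6 (-0.47, adjusted p = 0.042) fell. With arrays scaled to the same median 2 of the 8 rose and 1 fell, under quantile scaling 1 and 5, and in the 14-array model 0 and 0 (limma at an adjusted p under 0.05). For Gimap7 the call was lost without naive replicate 1, at 0.67, and for Gimap6 the call was lost without naive replicate 1 or 2 or GVHD replicate 1, 2 or 3, at -0.52 to -0.32. The other probe set of Gimap6 past the filter fell by more (-2.23), and that of Gimap7 was not called (-0.011).

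Outside the lists, the cytotoxic granule genes Gzmb (7.03), Gzma (6.26) and Nkg7 (5.24) were among the 12 largest rises, Gzmb going from 507, 579 and 749 to 92121, 86413 and 72661. The genes outside the lists were taken only where the groups did not overlap, so this separation follows from the choice. Also there was 1500009L16Rik, a gene without an assigned name, from 14.6, 18.2 and 138 to 7209, 8158 and 5576 (6.56). The 12 largest falls included Lrig1, a negative regulator of growth factor receptors, from 2469, 2101 and 2805 to 62.7, 96.8 and 62.9 (-4.56), the sialyltransferase St8sia6 (-4.55) and the detoxifying enzyme Gsta4 (-4.34). These kept their calls against naive replicates 4 to 6 (-4.51, -5.27 and -3.09). Cab39l fell by 4.28 at the probe set used, but 1 of its other 2 probe sets past the filter rose. The others of the 12 were Cd83 (-6.18), Ephx1 (-4.66), Evl (-4.78), Ramp1 (-4.70), Aff3 (-5.61), Nsg2 (-4.82), Ntn4 (-5.06) and Cyp4f18 (-4.73). Evl regulates actin and Ramp1 is a co-receptor for the neuropeptide CGRP.

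The GVHD change was set against the change of Treg cells taken from the ascites of P815-bearing knock-in mice (129/SvJ, H-2b) 5 days after 1000000 of these mastocytoma cells (H-2d) were injected into the peritoneum, each against its own controls. The tumor-activated arrays differ in cell content: T lineage markers had a median change of -1.90 there and macrophage markers 4.14, and their part in the differences was not tested. The difference between the changes was called in 906 of 11145 genes (8.13%), with GVHD more positive in 378 and more negative in 528. Among 48 kinetochore genes 41 were more positive in GVHD and 0 more negative, with a median difference of 2.95 between the changes. The control sets themselves differ in these genes: relative to the mean of naive replicates 1 to 3, the list median was 1.24 to 2.26 on the arrays of naive replicates 4 to 6, 4.11 to 4.17 on the GVHD arrays and 2.98 to 3.36 on the tumor-activated arrays. Against naive replicates 4 to 6 for both, controls which the changes then share, the list medians were 2.42 in GVHD and 1.35 in the tumor setting. Among 43 replication genes 15 were more positive and 0 more negative in GVHD (median difference 1.24). Ribosome biogenesis genes went the other way, with 0 more positive and 8 more negative of 40, the list medians being -0.20 in GVHD and 0.82 in the tumor setting. Against naive replicates 4 to 6 that list had a median of -0.042 in GVHD. Type I interferon genes had 6 and 0 of 25, and of the 33 proteasome genes 0 differed by limma at an adjusted p under 0.05. Without tumor-activated replicate 3 and naive replicate 6 GVHD was more positive in 44 kinetochore, 30 replication, 12 type I interferon and 6 proteasome genes, and more negative in 15 ribosome biogenesis genes.

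The largest differences among called list genes were Klf4 and Ctsl on the lower side. Klf4 changed by -3.29 in GVHD and 3.34 in the tumor setting, and Ctsl by -2.14 and 3.50. Bcl2 fell in GVHD (-4.35) and was at -0.83 with the tumor, a difference of -3.52 (SE 0.53, adjusted p = 7.3e-04). Myc was at -1.88 in GVHD and 0.95 with the tumor (difference adjusted p = 0.01), and Cd44 at -1.40 and 0.12 (adjusted p = 0.007). On the higher side stood Bub1b (6.35 and 1.35), Ccnf (5.36 and 0.62), Birc5 (6.16 and 1.66), Nusap1 (5.63 and 1.23) and Ccna2 (5.79 and 1.49). With naive replicates 4 to 6 as controls of GVHD too, these 5 GVHD changes were smaller, at 4.09, 2.45, 4.91, 2.57 and 3.37. On the lower side the GVHD changes against them were -1.36 for Klf4, -2.34 for Ctsl, -5.04 for Bcl2, -1.22 for Myc and -2.38 for Cd44. Tgfbr3 fell in both settings (-4.24 and -3.27), as did Bach2 (-3.83 and -3.44), Sesn1 (-2.96 and -2.93) and, at the probe set used, Cblb (-2.91 and -2.55). The difference was not called for these 4 (adjusted p = 0.41, 0.83, 0.98 and 0.86), which does not show that the changes were equal. Without tumor-activated replicate 3 and naive replicate 6 the count of differing genes was 1684, without tumor-activated replicate 3 alone 1763, and without naive replicate 5 547.

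**Figure D4:**
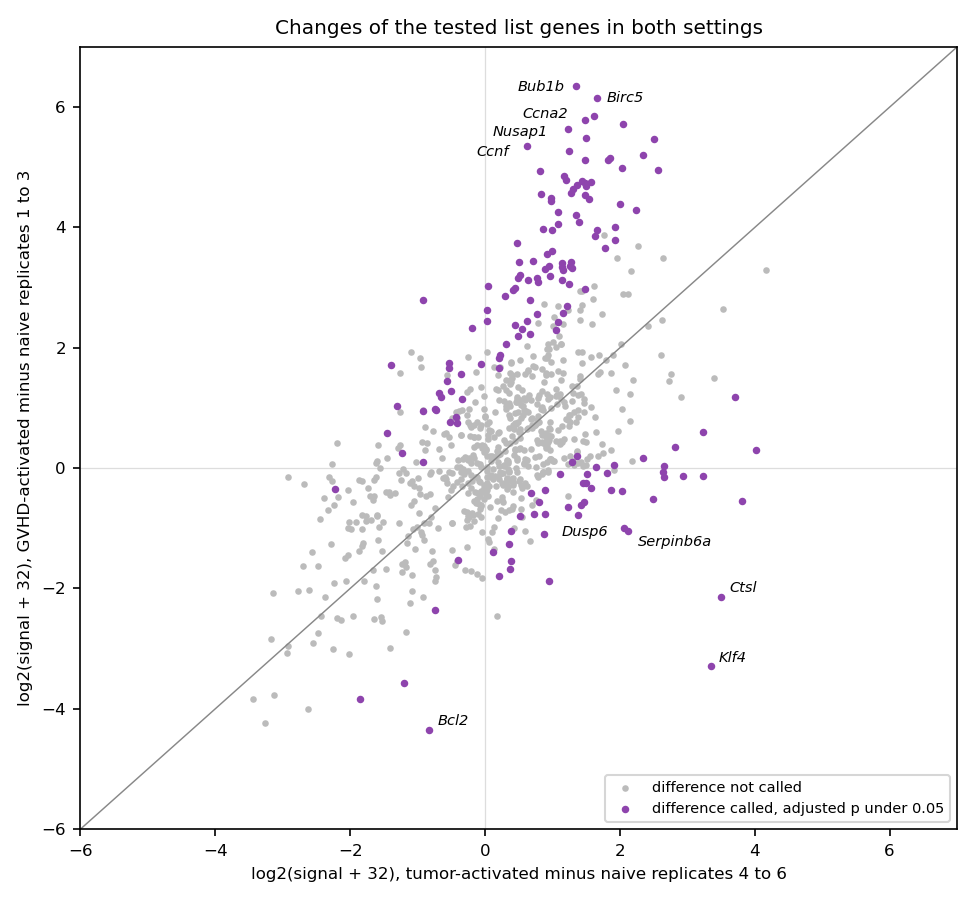
Change of each tested list gene in log2(signal + 32) in the tumor setting (x axis, 5 tumor-activated arrays minus naive replicates 4 to 6) and in GVHD (y axis, 3 arrays minus naive replicates 1 to 3), with genes whose changes differed in purple and equal changes on the diagonal. The mitotic genes Bub1b, Birc5, Nusap1, Ccna2 and Ccnf lie far above the diagonal, and Klf4, Ctsl, Serpinb6a, Dusp6 and Bcl2 far below it. The axes use different naive controls.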

How the data were processed

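RNA of sorted Treg cells was extracted with Trizol and hybridised as biotin-labelled product, per the labels' protocols. The authors deposited intensity values, MAS5 signals per the submitters' processing notes (version not given in sources used here). Since the GVHD arrays had been deposited at a trimmed mean 3 times that of the others, each of 14 arrays was rescaled to a 2% trimmed mean of 500. Probe sets with 1 gene symbol (34945 of 45101) were used, for each gene the one with the highest mean log2 signal, if it reached 100 on at least 3 of the 6 arrays. This left 11145 of 18193 genes. limma 3.58.1 in R 4.3.3 (lmFit, eBayes with trend) was fitted to log2(signal + 32) of 3 GVHD and 3 naive arrays, with Benjamini-Hochberg adjustment over all genes tested, and to 14 arrays for the contrast with the tumor change. The fits were tested on simulated data. Offset, filter, scaling, probe set, controls, weights, replicate block and leaving out arrays were varied.

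Of 982 genes in 31 pathway and 10 marker lists 929 were on the array. The genes named are up to 4 called genes with the largest change in the direction with more calls and up to 2 in the other in each pathway list, the 12 largest rises and falls outside the lists at a mean signal of at least 200 whose groups do not overlap, a fixed set of names given whatever their value, and the 5 largest differences from the tumor change each way. Members of a direction with few calls, members not called and the printed promoters' genes were added after their values were seen. The comparison and lists were chosen with earlier results of these data known. Promoters are from RefSeq (GRCm38.p6), matched by symbol.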

Additional observations from a re-analysis of the deposited data

Results flagged for a closer look

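The GVHD change differed from the tumor change in 906 of 11145 genes by limma's contrast of the changes over 14 arrays (Benjamini-Hochberg adjusted p under 0.05), and in 1684 without tumor-activated replicate 3 and naive replicate 6. Among called list genes the 5 largest negative differences (GVHD change minus tumor change, log2) were Klf4 (-6.64, adjusted p = 8.4e-04), Ctsl (-5.63, 2.0e-05), Bcl2 (-3.52, 7.3e-04), Serpinb6a (-3.17, 0.0025) and Dusp6 (-3.05, 0.0043). The 5 largest positive differences were Bub1b (4.99, 2.1e-04), Ccnf (4.74, 2.0e-05), Birc5 (4.50, 0.0033), Nusap1 (4.40, 1.6e-04) and Ccna2 (4.30, 4.8e-05). Without tumor-activated replicate 3 and naive replicate 6 these 10 differences were -7.96, -5.93, -3.92, -2.77 and -3.37, and 5.52, 4.96, 5.54, 5.02 and 4.81, in the same order. The changes behind these differences use different controls. With naive replicates 4 to 6 as controls of both, the GVHD and tumor changes were 4.09 and 1.35 for Bub1b, 2.45 and 0.62 for Ccnf, 4.91 and 1.66 for Birc5, 2.57 and 1.23 for Nusap1 and 3.37 and 1.49 for Ccna2, so that all 5 lay closer together. For the other 5 they were -1.36 and 3.34 for Klf4, -2.34 and 3.50 for Ctsl, -5.04 and -0.83 for Bcl2, -0.84 and 2.12 for Serpinb6a and -2.16 and 2.06 for Dusp6. The part of the cells other than T cells on the tumor-activated arrays was not tested.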

How the results depend on the processing

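The totals of 2061 higher and 2657 lower genes stayed within 1.5 times under offsets of 16 and 64, no filter on signal and a filter at 200. They also did so under quantile scaling, the mean of a gene's probe sets, either other set of naive controls and array weights. Similar totals need not hold the same genes. With naive replicates 4 to 6 as controls, 1470 of the 2061 higher and 1708 of the 2657 lower genes kept call and direction. With all 6 naive arrays 1602 and 1983 did. Scaling to the same median gave 1677 lower genes, the means model over 14 arrays 1228 higher and 1519 lower, and the values as deposited 8237 higher and 295 lower, a scale on which the median change over all genes was 1.38. Leaving out 1 array at a time gave 1725 to 2043 higher and 2032 to 2661 lower genes. The 906 genes that differed from the tumor change became 3458 with all 6 naive arrays as controls of both, 1684 without tumor-activated replicate 3 and naive replicate 6, and 547 to 1763 with 1 array left out at a time.

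The titles do not say whether replicate numbers pair the samples. Deviations of same-numbered arrays from their group means correlated at 0.073, 0.129 and -0.072, and those of arrays with different numbers at -0.185 to 0.144. Deviations from a mean of 3 arrays depend on each other, so these values cannot decide it. With the replicate block, 2095 genes were higher and 2634 lower, and 471 differed from the tumor change.

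Of 278 named genes, 70 lost their call in the 14-array model, 15 with the same median and 13 with the mean of a gene's probe sets. With naive replicates 4 to 6, 34 lost their call without a turn of sign. With naive replicates 4 and 5 (an alternative chosen after seeing the data) 43 did so. Genes whose sign turned are not in these counts, although some of them lost their call as well. Signs turned under 4 alternatives. With values as deposited these were Atf4 (0.79), B2m (1.47), Bbc3 (0.47), Bcl2l11 (0.51), Birc2 (0.83), Casp1 (0.030), Ccnd2 (1.54), Cd3d (0.59), Cd3e (1.05), Cd4 (0.68), Cd44 (0.16), Cd74 (0.59), Cd79b (0.48), Cdkn1b (0.41), Dhodh (0.42), Dnmt3a (0.63), Dnmt3b (0.63), Dusp6 (0.41), Ezh1 (0.43), Fyn (0.32), Gbp8 (0.19), Gimap1 (0.96), Gimap6 (1.11), Gimap8 (0.78), H2-K1 (1.22), Icam2 (0.52), Id2 (1.07), Ikzf2 (1.14), Il6st (0.32), Il7r (1.36), Itga4 (0.71), Itgal (0.57), Jak1 (1.12), Klf2 (0.58), Malt1 (0.69), Mcl1 (1.28), Mrpl23 (1.04), Mrpl24 (0.82), Mrpl38 (0.31), Mrps31 (0.83), Mrps35 (0.99), Nlrc5 (0.37), Nob1 (0.74), Pdcd1 (0.47), Pim3 (0.31), Plcg1 (0.58), Rasgrp1 (0.28), Rbl2 (1.17), Rps15 (0.35), Serpinb6a (0.47), Slc19a1 (0.74), Slc38a2 (0.59), Smad2 (1.25), Smad3 (0.54), Smad4 (0.14), Smc4 (0.67), Socs5 (0.11), Stat5b (0.66), Stat6 (0.32), Tet2 (0.16), Tgfb1 (1.50), Tgfbr1 (0.75), Utp20 (0.46) and Wdr75 (0.78). With naive replicates 4 to 6 they were Anxa1 (-1.52), Atf4 (0.92), B2m (1.68), Cd3d (0.22), Cd4 (0.43), Cflar (-1.20), Ddit3 (0.11), H2-K1 (0.99), Ikzf3 (-0.058), Jak1 (0.59), Klf2 (0.51), Mrpl23 (1.35), Mrps35 (0.38), Myb (-0.053), Rps15 (1.98), Slc16a1 (-0.19), Slc38a2 (0.067), Tgfb1 (1.88) and Tnfaip3 (0.47). With naive replicates 4 and 5 they were Anxa1 (-1.13), Apaf1 (-0.058), Atf4 (1.23), B2m (1.62), Cd3d (0.083), Cd4 (0.29), Ddit3 (0.12), Gimap6 (0.064), H2-K1 (0.87), Ikzf3 (-0.031), Jak1 (0.59), Klf2 (0.59), Mrpl23 (1.19), Mrps35 (0.25), Rps15 (1.50), Slc16a1 (-0.23), Tgfb1 (1.59) and Tnfaip3 (1.11). With all 6 naive arrays they were Anxa1 (-0.17), Atf4 (0.066), Jak1 (0.067), Mrpl23 (0.41) and Rps15 (0.37). The cause was not tested. The number of arrays limits the precision, and 7048 of 18193 genes were too dim to test.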
